A study of Mus musculus with 18 samples.

Results

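Markers of injured and repairing kidney tubules were followed in whole mouse kidneys. The 10 genes were chosen by name and are Havcr1, Lcn2, Krt20, Krt18, Sox9, Spp1, Clu, Timp1, Vcam1 and Vim. Each was found once by its symbol, which gave 10 of the 32675 genes listed, and all 10 passed the filter on low counts. The data were bulk RNA sequencing of the right kidneys of 18 male wild-type C57BL/6 mice, 6-week according to the age label, with 6 mice in each of 3 groups. Ctrl mice were not defeated. They were handled each day and kept in like cages, and no injection of them is described. Defeat and daily injections therefore cannot be told apart in the comparisons with Ctrl. StressPbs mice underwent chronic social defeat stress (CSDS), in which a mouse is exposed to an aggressive resident CD-1 mouse, for 10 min a day over 14 days, with a daily intraperitoneal injection of phosphate-buffered saline. StressFlx mice underwent the same stress with daily injections of fluoxetine, a serotonin reuptake inhibitor, at 10 mg per kg. Each library was from 1 mouse, so that replicates were separate animals. The study left out 1 StressPbs mouse for excessive inflammatory gene expression without naming it. The selection rule used here singles out StressPbs mouse 6, and counts of members are given over StressPbs mice 1 to 5 and then over all 6 StressPbs mice. None of the groups had a direct kidney insult by design, and there was no positive control for tubule injury. In the left kidneys the study saw no macrophage infiltration and no change in histology or IgG staining under CSDS. It lists wounds from the defeat bouts as a limitation that might affect inflammatory results.

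When tubule epithelium is damaged, surviving cells lose part of their transport programme, spread over the bare basement membrane and express genes that are low in resting tubules, before most of them return to their former state. Havcr1 encodes kidney injury molecule KIM-1 and Lcn2 encodes the lipocalin NGAL, both widely used as markers of acute tubular damage, while Sox9 encodes a transcription factor of regenerating tubule cells. Several of the other markers are shared with other cells, since Krt20 and Krt18 are keratins of urothelium too, Lcn2 is also a neutrophil granule gene, and Vim, Timp1 and Vcam1 are expressed by stromal, endothelial or inflammatory cells. In a bulk sample, fewer cells of a type and less RNA per cell cannot be told apart.

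The tissue label was checked with markers of differentiated nephron segments. The summed level of 15 proximal tubule genes was between 3225 and 5197 FPKM (fragments scaled to transcript length and library size, a level per length that can be compared between genes) over the 18 mice. Miox and Slc34a1 were the most abundant of them. Total estimated counts were 48928823 to 52073640 in StressFlx mice 3 to 6 and 72149987 to 79061296 in the other 14 mice, which makes scarce members such as Sox9 less precise in those 4. In StressPbs mouse 6 the proximal tubule sum was 3225 FPKM, below the lowest of the other 17 mice (4189 FPKM). The 15 genes did not move alike in this mouse. Adding it to StressPbs mice 1 to 5 lowered the group mean of Miox from 1457 to 1276.5 FPKM and of Slc34a1 from 774 to 705. It raised the mean of Pck1 from 607 to 648.5 FPKM and of Slc13a1 from 27.1 to 40.0.

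The upstream sequence of members was read to show what stands before their starts. RefSeq starts were at hand for 7 of the 10 members, with 10 starts in all. Sox9, Clu and Vcam1 had none. In 5 of the 10 windows of 250 bases no base lay in a GENCODE M21 exon. The windows of Spp1, Krt20 and Timp1 printed here are among these 5 and end just before the gene's first base or within a few bases of it. Spp1 was the marker with the most RNA, Krt20 had the largest fold change and Timp1 stood high in StressPbs mouse 6. The sequences are in GRCm38.p6 coordinates, 5′ to 3′ on the gene's strand, at chr5:104434861-104435110 (plus strand) for Spp1, chr11:99438154-99438403 (minus strand) for Krt20 and chrX:20869916-20870165 (plus strand) for Timp1.
Spp1: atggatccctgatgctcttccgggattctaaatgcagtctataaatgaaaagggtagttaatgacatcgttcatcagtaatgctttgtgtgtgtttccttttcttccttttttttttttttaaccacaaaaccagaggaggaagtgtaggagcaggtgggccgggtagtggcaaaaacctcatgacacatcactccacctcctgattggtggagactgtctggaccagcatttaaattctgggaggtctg
Krt20: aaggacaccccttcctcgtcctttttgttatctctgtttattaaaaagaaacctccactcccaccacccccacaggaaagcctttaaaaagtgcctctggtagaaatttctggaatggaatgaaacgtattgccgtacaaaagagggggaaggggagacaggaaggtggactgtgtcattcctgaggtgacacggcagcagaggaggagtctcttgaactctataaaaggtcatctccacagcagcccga
Timp1: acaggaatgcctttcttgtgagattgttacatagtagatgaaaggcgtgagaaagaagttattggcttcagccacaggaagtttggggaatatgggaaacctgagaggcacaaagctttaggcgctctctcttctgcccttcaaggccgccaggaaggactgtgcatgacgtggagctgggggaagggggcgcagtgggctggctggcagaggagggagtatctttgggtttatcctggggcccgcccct
Capitals would mark matches to 3 motifs, and none of the 3 printed windows held one. On both strands, AP-1 (TGANTCA) was found in 0 of the 10 windows of members, against 6.75% of 32851 promoters of the same length, and STAT (TTCNNNGAA) in 0 of 10 against 7.02%. The NF-kB consensus was found in 1 of 10, that of Vim, 223 bases before the start and inside an annotated exon, against 3.90% of all promoters. These counts describe the letters of the windows only.

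The first comparison asks how the markers differ in kidneys of stressed, saline-injected mice from those of undefeated mice, for which no injection is described. Clu and Spp1 were higher in StressPbs mice than in Ctrl mice, both by slightly less than 2-fold in the 5-mouse comparison, and none was lower. They were 2 of 10 members, against 3.81% of the 20251 genes tested at an adjusted p under 0.05. All 10 members had log2 fold changes above 0, from 0.51 for Vcam1 to 2.51 for Krt20, with a median of 0.88 against -0.01 over all genes tested. With StressPbs mouse 6 in the fit, Lcn2 was also called, giving 3 of 10 members against 4.28% of 19946 genes, and the median log2 fold change was 1.69 against 0.00 over all genes. At the study's threshold (an absolute log2 fold change above 1 with an unadjusted p under 0.05), 1 member passed with 5 StressPbs mice, Lcn2, where 3.28% of all genes did. With all 6 mice, 7 members passed, where 3.77% of all genes did. The unadjusted p from edgeR was under 0.05 for 5 of 10 members with 5 StressPbs mice and for 9 with all 6. The share of all genes at that p alone was not counted. The FPKM of the groups did not overlap for 2 members, Clu and Spp1, where 3.52% of all genes tested were without overlap with 5 StressPbs mice and 2.75% with 6.

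**Figure D1:**
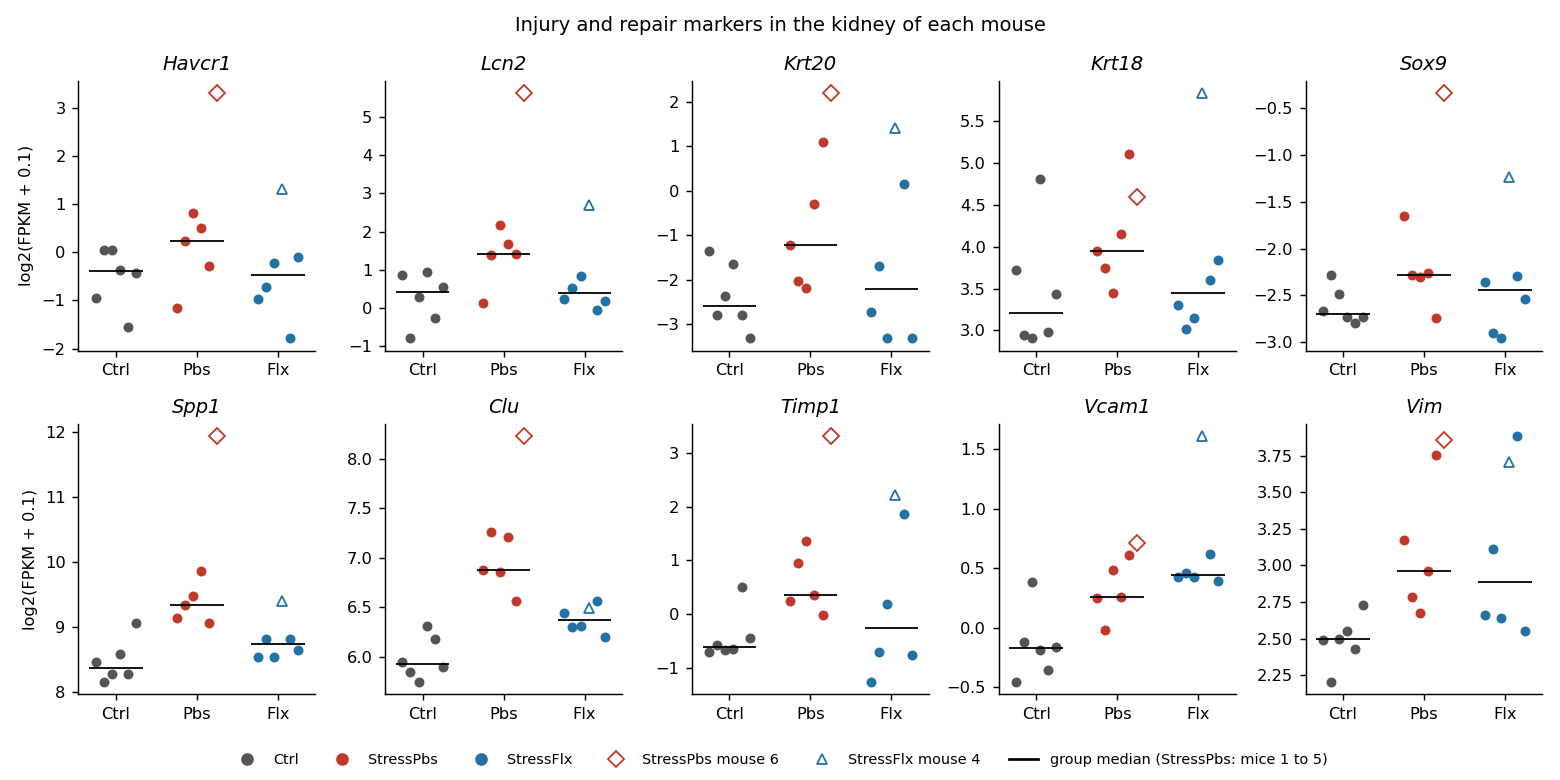
Level of each of the 10 markers, as log2(FPKM + 0.1), in each of the 6 Ctrl, 6 StressPbs and 6 StressFlx mice, with a point per mouse and a bar at the group median (StressPbs mice 1 to 5). The open diamond (StressPbs mouse 6) is the highest of all 18 mice for 7 markers, and the open triangle (StressFlx mouse 4) is the highest StressFlx mouse for 8.

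Spp1 (ENSMUSG00000029304, GRCm38 chromosome 5, 104435118 to 104441050) encodes osteopontin, a secreted phosphoprotein of the distal nephron that is also expressed by injured tubules. It was by far the most abundant member per length. The Ctrl mice ranged from 285 FPKM to 532 FPKM with a median of 332, and the 5 StressPbs mice had 561, 643, 709, 931 and 534 FPKM. The groups were therefore apart by a narrow gap, since the lowest StressPbs mouse stood at 534 and the highest Ctrl mouse at 532 FPKM. The mean was 676 ± 159 FPKM (SD, n = 5) against 362 ± 90.2 (SD, n = 6), a log2 fold change of 0.91 (SE 0.18, adjusted p = 0.00797, edgeR). The exact permutation test gave p = 0.00433, the smallest that 5 against 6 mice allow. StressPbs mouse 6 had 3904 FPKM of Spp1, 4.19 times the highest of the other 5. Including it gave a log2 fold change of 1.72 (SE 0.40, adjusted p = 0.0198).

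Clu (ENSMUSG00000022037, chromosome 14, 65968483 to 65981547) encodes clusterin, a secreted chaperone known from damaged tubules. Its 6 Ctrl mice ranged from 53.6 to 79.2 FPKM with a median of 60.6. The 5 StressPbs mice had 117, 153, 116, 148 and 94.4 FPKM. Every StressPbs mouse was above every Ctrl mouse, and the log2 fold change was 0.98 (SE 0.13, adjusted p = 0.000464, edgeR; exact permutation p = 0.00433). Clu had the smallest SE of the 10 members. With StressPbs mouse 6, at 299.6 FPKM, the log2 fold change was 1.26 (SE 0.21, adjusted p = 0.00238).

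Lcn2 (ENSMUSG00000026822, chromosome 2, 32384633 to 32387797) encodes a siderophore-binding lipocalin secreted by stressed tubule cells and neutrophils. The Ctrl mice ranged from 0.474 to 1.82 FPKM with a median of 1.25, and the 5 StressPbs mice had 0.985, 2.52, 4.42, 3.08 and 2.58 FPKM. Of these 5, 4 lay above all Ctrl mice and StressPbs mouse 1 lay inside the Ctrl range. The log2 fold change of 1.17 (SE 0.47) did not pass the test over all genes (adjusted p = 0.192, unadjusted p = 0.0233 from edgeR; exact permutation p = 0.0346). In StressPbs mouse 6, 49.2 FPKM were 11.1 times the highest of the other 5. With it the log2 fold change was 3.07 (SE 0.81, adjusted p = 0.0373), so that the call depended on this mouse. The summed level of the 10 neutrophil markers, led by S100a9 and S100a8, was 1.44 to 3.35 FPKM in Ctrl mice, 7.24 to 26.2 in StressPbs mice 1 to 5 and 66.5 in StressPbs mouse 6, with Ngp and Camp at 0 in every Ctrl mouse. Where 3.81% of all genes tested were called, 3 of the 7 neutrophil markers tested were higher in the 5 StressPbs mice (median log2 fold change 2.66). S100a8 was among them, by 2.96 on the log2 scale (adjusted p = 0.0205). Mouse by mouse, the neutrophil sum and Lcn2 ran together in part. StressPbs mouse 6 was the highest for both. StressPbs mice 3 and 4, with sums of 16.4 and 26.2 FPKM and Lcn2 at 4.42 and 3.08, were the highest of mice 1 to 5 for both. Other mice did not keep the same order. StressPbs mouse 1 had a sum of 9.34 FPKM, above all Ctrl mice, with Lcn2 inside the Ctrl range, and StressFlx mouse 4 had a sum of 4.58 FPKM, below every StressPbs mouse, with 6.37 FPKM of Lcn2. The part of neutrophils in the Lcn2 level was not tested.

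Havcr1 (ENSMUSG00000040405, chromosome 11, 46735080 to 46779578) encodes the phosphatidylserine receptor with which injured proximal tubule cells take up debris. It was low in all groups, with 0.242 to 0.932 FPKM in Ctrl mice (median 0.660). The StressPbs mice had 0.346, 1.07, 1.66, 1.32 and 0.721 FPKM, of which 3 lay above all Ctrl mice. The groups overlapped, and the log2 fold change of 0.69 (SE 0.50, adjusted p = 0.512) did not pass. StressPbs mouse 6 was apart, with 9.75 FPKM. With it the log2 fold change of 1.92 (SE 0.68) still had an adjusted p of 0.115.

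Krt20 (ENSMUSG00000035775, chromosome 11, 99428403 to 99438150) and Krt18 (ENSMUSG00000023043, chromosome 15, 102028180 to 102032027) encode a type I keratin of urothelium and damaged tubules and a keratin of simple epithelia. Krt20 ranged from 0 to 0.289 FPKM in Ctrl mice (median 0.0686) and had 0.328, 0.147, 0.119, 0.715 and 2.04 FPKM in the 5 StressPbs mice. Ctrl mouse 6 and StressFlx mice 3 and 6 had 0 counts, which allows up to 3. The log2 fold change of 2.51 was the largest of the members but carried the largest SE, 1.20, and was not called (adjusted p = 0.281, edgeR). Of the 5 StressPbs mice, 3 were above all Ctrl mice, and StressPbs mouse 6 had 4.48 FPKM. With it the log2 fold change was 3.44 (SE 1.25, adjusted p = 0.126). Krt18 stood at 7.38 to 28.0 FPKM in Ctrl mice, 10.8 to 34.5 in StressPbs mice 1 to 5 and 24.1 in StressPbs mouse 6. Its groups overlapped and its log2 fold change was 0.56 (SE 0.48, adjusted p = 0.593). Krt8, the type II keratin partner of Krt18, was looked up after the values were seen and had a mean of 49.3 FPKM in the 5 StressPbs mice against 52.5 in Ctrl mice (log2 fold change -0.09, adjusted p = 0.814). The other keratins looked up with it were above 0 and not called. Krt7 was at 0.48 (unadjusted p = 0.0050, adjusted p = 0.0855, edgeR) and Krt19 at 0.88 (adjusted p = 0.647).

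The remaining 4 members, with between 7 and 5752 counts per mouse, were Sox9 (ENSMUSG00000000567, chromosome 11, 112782224 to 112787760), Timp1 (ENSMUSG00000001131, chromosome X, 20870166 to 20874735), Vcam1 (ENSMUSG00000027962, chromosome 3, 116109949 to 116129688) and Vim (ENSMUSG00000026728, chromosome 2, 13573927 to 13582826). They encode the repair transcription factor, an inhibitor of matrix metalloproteinases, a leukocyte adhesion molecule of endothelium and maladaptive proximal tubule cells, and the intermediate filament vimentin. Sox9 was near the floor, with 0.0444 to 0.105 FPKM in Ctrl mice and 0.0497 to 0.218 in StressPbs mice 1 to 5, and its log2 fold change was 0.85 (SE 0.52, adjusted p = 0.425). Timp1 had 0.513 to 1.32 FPKM in Ctrl mice and 0.882 to 2.47 in StressPbs mice 1 to 5, with a log2 fold change of 1.11 (SE 0.57, adjusted p = 0.320). The single high Ctrl mouse, mouse 5, was the one that made these Timp1 groups overlap. Vcam1 stood at 0.631 to 1.21 and 0.888 to 1.43 FPKM (log2 fold change 0.51, SE 0.20, adjusted p = 0.183). Vim stood at 4.51 to 6.53 FPKM in Ctrl mice and 6.30 to 13.4 in StressPbs mice 1 to 5, with a log2 fold change of 0.64 (SE 0.23, adjusted p = 0.127, exact permutation p = 0.00866). The exact permutation p with 5 StressPbs mice was 0.0173 for Timp1, 0.0260 for Vcam1 and 0.0736 for Sox9. None of these 4 was called with all 6 StressPbs mice by edgeR either, and their adjusted p were between 0.0613 and 0.126. DESeq2 on the 6 mice did call Timp1, Vcam1 and Vim, beside Clu and Spp1, where it called 5.18% of genes, and gave no p for Lcn2. It called Clu and Spp1 with 5 StressPbs mice, where it called 4.66% of genes.

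**Figure D2:**
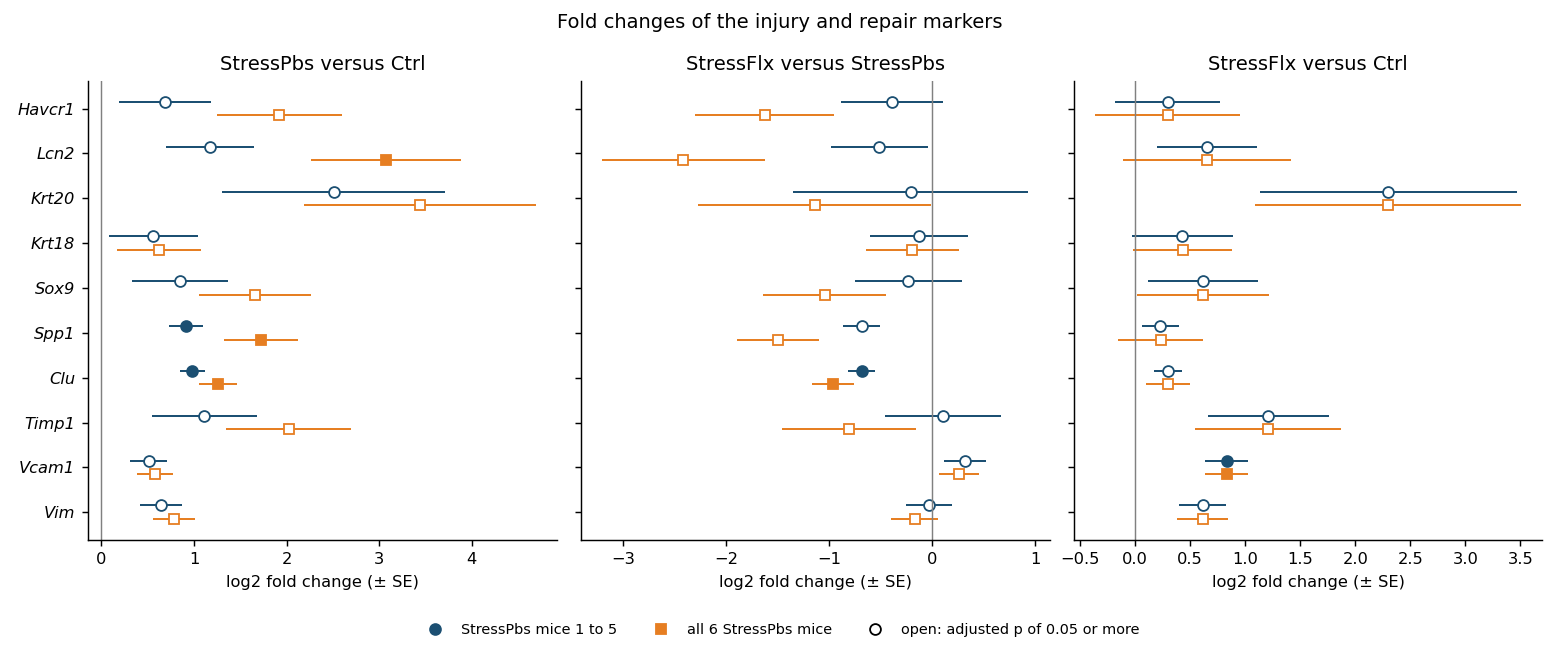
Log2 fold change ± SE from edgeR of the 10 markers in the 3 comparisons, with StressPbs mice 1 to 5 (circles) and all 6 (squares), filled where the adjusted p was under 0.05. Every marker stands above 0 in both comparisons with Ctrl, although 4 fall below 0 in StressFlx versus Ctrl without StressFlx mouse 4. Adding StressPbs mouse 6 moves Havcr1, Lcn2, Sox9, Spp1, Clu and Timp1 by more than their SE with 5 mice in both comparisons that use the StressPbs mice.

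The second comparison asks how fluoxetine-treated stressed mice differed from saline-treated ones. It uses the same StressPbs mice as the first, so that a high StressPbs mouse raises one fold change and lowers the other. Clu was the 1 member of 10 called, and it was lower in the StressFlx mice, where 0.726% of all genes tested were called. Its 6 StressFlx mice ranged from 73.3 to 94.3 FPKM with a median of 82.8, just below the lowest StressPbs mouse at 94.4 FPKM. The log2 fold change was -0.69 (SE 0.13, adjusted p = 0.0222, edgeR; exact permutation p = 0.00433), and -0.97 with StressPbs mouse 6 (SE 0.20, adjusted p = 0.0358), where 0.557% of genes were called. This call was lost without StressFlx mouse 2, 3 or 6 or StressPbs mouse 2 or 4, with adjusted p from 0.0505 to 0.0825. It was also lost when StressFlx mice 1 and 2, the 2 with totals like those of the other groups, stood alone for the group (-0.66, adjusted p = 0.581), where 0 of 21863 genes were called.

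Spp1 ranged from 371 to 678 FPKM in StressFlx mice with a median of 425. StressFlx mouse 4, the highest, lay among the StressPbs mice, and the next highest had 449.5 FPKM. The log2 fold change was -0.68 (SE 0.18), with an adjusted p of 0.0897, and without StressFlx mouse 4 it was -0.81 (adjusted p = 0.0362). DESeq2 called Spp1 (adjusted p = 0.0105). The other 8 members had log2 fold changes between -0.51 (Lcn2) and 0.32 (Vcam1), and 8 of the 10 were below 0 with a median of -0.22. With all 6 StressPbs mice, 9 of 10 were below 0 with a median of -1.01, from -2.42 for Lcn2 to 0.26 for Vcam1. At the study's threshold, 0 members passed with 5 StressPbs mice, where 1.90% of genes did, with 2 of the 10 at an unadjusted p under 0.05. With all 6, 3 passed (Havcr1, Lcn2 and Spp1), where 2.28% of genes did. The groups did not overlap for 1 member, Clu, where 2.92% of genes did not overlap with 5 StressPbs mice and 2.04% with 6.

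Among the early injury markers, Havcr1 ranged from 0.189 to 2.40 FPKM in StressFlx mice (median 0.629) and Lcn2 from 0.865 to 6.37 (median 1.21). For both, 5 of the 6 StressFlx mice lay below the StressPbs median and StressFlx mouse 4 lay above all 5 StressPbs mice. The neutrophil markers summed to 0.453 to 5.74 FPKM in StressFlx mice, below each StressPbs mouse. Of the 7 tested, 1 was lower, S100a8 (-3.14, adjusted p = 0.0402), where 0.726% of genes were called. Krt20 ranged from 0 to 2.57 FPKM (median 0.131), Krt18 from 7.99 to 57.0 (median 10.9) and Sox9 from 0.0285 to 0.325 (median 0.0839). Timp1 ranged from 0.318 to 4.56 FPKM (median 0.772), with 4.56 and 3.54 in StressFlx mice 4 and 5 and at most 1.04 in the other 4. Vim ranged from 5.77 to 14.6 FPKM (median 7.38) and was likewise highest in StressFlx mice 5 and 4. All of these overlapped the StressPbs mice. None was called, with adjusted p from 0.777 to 0.985 over the 7 members.

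The third comparison sets the StressFlx mice against the undefeated mice. All 10 members had log2 fold changes above 0, with a median of 0.61 against -0.01 over all genes tested. Without StressFlx mouse 4, 4 of them were below 0, namely Havcr1 (-0.29), Lcn2 (-0.052), Krt18 (-0.31) and Sox9 (-0.023). The 1 member called was Vcam1, where 3.67% of genes were called. Its 6 StressFlx mice had 1.24, 1.28, 1.24, 2.95, 1.44 and 1.21 FPKM, above the highest Ctrl mouse at 1.21 FPKM by a narrow margin, while the other Ctrl mice reached 0.823. The mean was 1.56 ± 0.684 FPKM (SD, n = 6) against 0.820 ± 0.203 (SD, n = 6). The log2 fold change was 0.83 (SE 0.19, adjusted p = 0.0269, edgeR), and the exact permutation test gave p = 0.00216, the smallest that 6 against 6 mice allow. That test and the overlap used FPKM as deposited, without TMM scaling. The median log2 fold change over all genes was 0.063 by limma on log2(FPKM + 0.1), against -0.01 by edgeR. The narrow gap of Vcam1 was not tested with scaled values. In the fit with all 6 StressPbs mice, where 1.77% of genes were called, the adjusted p was 0.0379. The call was lost without Ctrl mouse 1, 2, 4, 5 or 6, with adjusted p from 0.0506 to 0.0653, and kept without StressFlx mouse 4, when the log2 fold change was 0.59. At the study's threshold, 1 member passed, Timp1, where 2.24% of genes did, and 0 members passed in the fit with all 6 StressPbs mice, where 2.09% did. The Timp1 groups overlapped (exact permutation p = 0.336), with StressFlx mice 4 and 5 above all Ctrl mice and 3 StressFlx mice below all of them. Timp1 had a fold change of 1.21 on the log2 scale (SE 0.55), 0.69 without StressFlx mouse 4 and 0.88 without StressFlx mouse 5. The groups did not overlap for 1 member, Vcam1, where 3.40% of genes did not in the first gene set and 3.44% in the second. Clu in StressFlx mice overlapped the Ctrl range, with a log2 fold change of 0.30 (SE 0.13, adjusted p = 0.201, edgeR). All 6 StressFlx mice were above the Ctrl median of Clu and 3 were above all Ctrl mice (exact permutation p = 0.00866 on unscaled FPKM). By edgeR 4 of the 10 members had an unadjusted p under 0.05 in this comparison, and 2 in the fit with all 6 StressPbs mice.

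Single mice carried much of the spread. For each mouse the members above all 6 Ctrl mice were counted, beside the share of all genes tested above all 6 Ctrl mice. StressPbs mice 1 to 5 had 5, 7, 6, 7 and 7 of 10 members above, against 12.6% to 21.2% of all genes. StressPbs mouse 6 had 9 of 10, all but Krt18, against 26.5% of genes. StressFlx mice 1, 2, 3 and 6 had 2, 2, 1 and 1 of 10, against 16.0% to 23.3% of genes. StressFlx mouse 5 had 5 of 10, and StressFlx mouse 4 had 10 of 10, against 26.4% and 29.4% of genes. In both stressed groups the count thus varied from mouse to mouse. This is a description per mouse with no test.

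**Figure D3:**
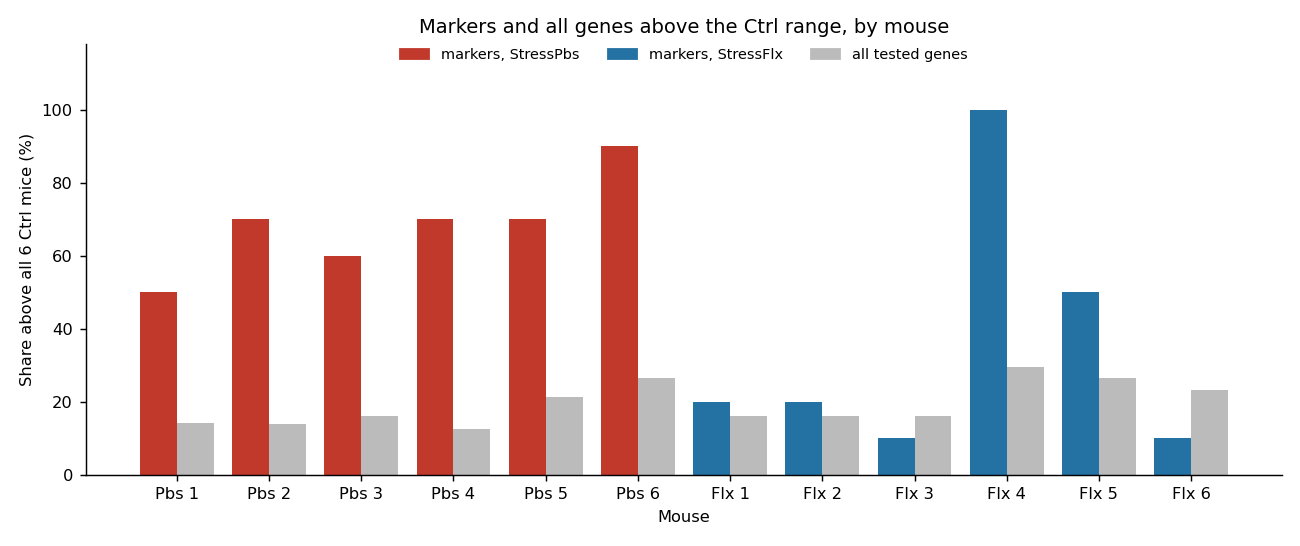
Share of the 10 markers (coloured bars) and of all genes tested (grey bars) whose FPKM lay above all 6 Ctrl mice, in each StressPbs and StressFlx mouse, in percent. StressPbs mouse 6 had 9 of 10 markers and StressFlx mouse 4 had 10 of 10 above the Ctrl range, while StressFlx mice 1, 2, 3 and 6 had 1 or 2.

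StressFlx mouse 4 was the highest StressFlx mouse for 8 members, with 2.40 FPKM of Havcr1, 6.37 of Lcn2, 57.0 of Krt18, 4.56 of Timp1 and 2.95 of Vcam1. The 7 urothelial markers, led by Upk1a and Upk3a, summed to 163 FPKM in this mouse, against 1.82 to 25.8 in the other 5 StressFlx mice. They summed to 52.4 FPKM in StressPbs mouse 5 and 35.3 in Ctrl mouse 4. These 3 mice, in that order, also had the most Krt18, at 57.0, 34.5 and 28.0 FPKM. StressPbs mouse 6 went another way, with 2.73 FPKM of urothelial markers beside its 4.48 FPKM of Krt20. The part of urothelium in the Krt18 and Krt20 levels was not tested. None of the 7 urothelial genes was called in any of the 3 comparisons by edgeR or DESeq2, and none had an unadjusted p under 0.05 by edgeR.

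**Figure D4:**
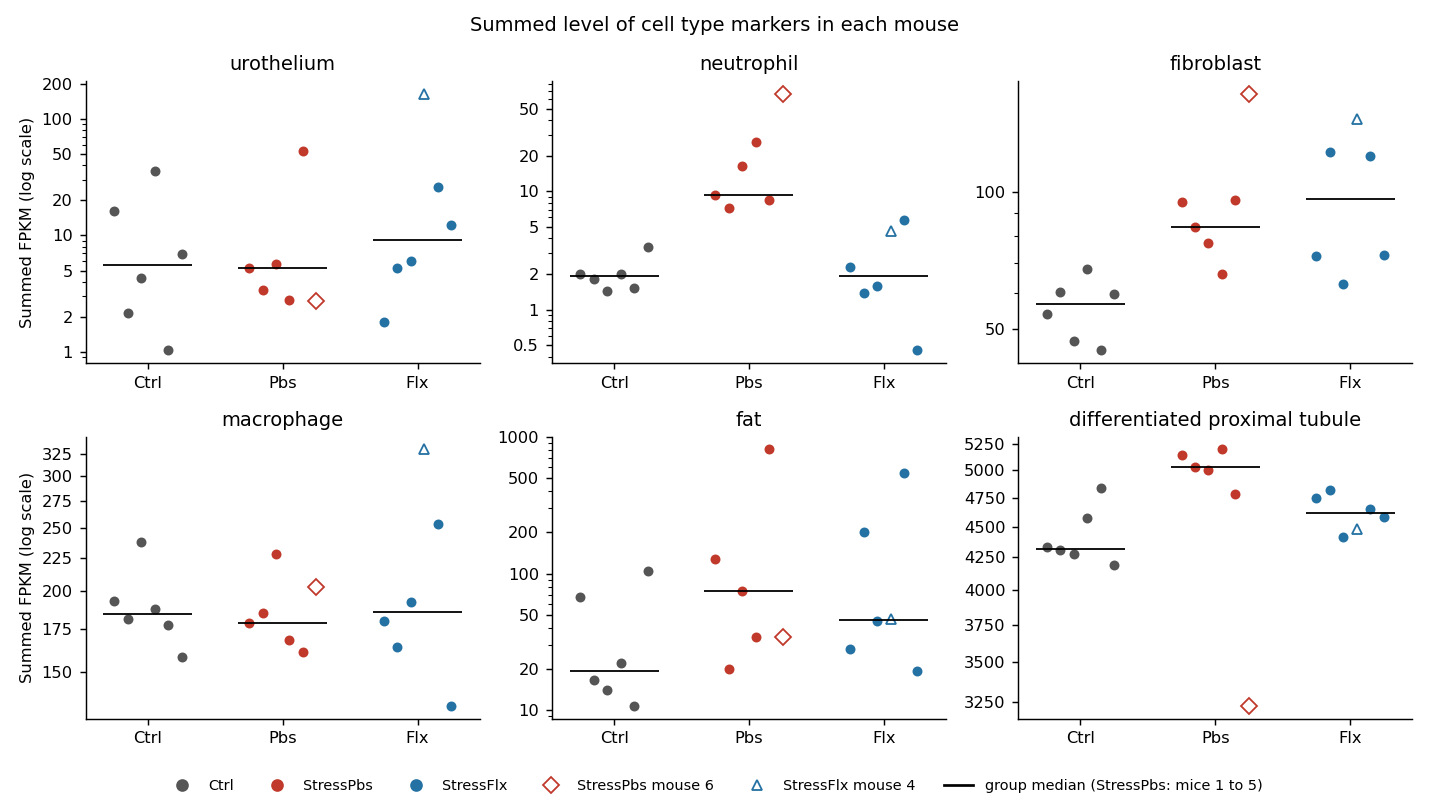
Summed FPKM (log scale) of 6 lists of cell type markers in each mouse, with a bar at the group median (StressPbs mice 1 to 5). Urothelial markers reach 163 FPKM in StressFlx mouse 4, and neutrophil markers reach 66.5 FPKM and proximal tubule markers are at 3225 FPKM in StressPbs mouse 6.

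Other cell types were gauged in the same way. Fibroblast markers, led by Tagln and Acta2, summed to 44.8 to 67.9 FPKM in Ctrl mice, 66.0 to 96.3 in StressPbs mice 1 to 5, 164.8 in StressPbs mouse 6 and 62.9 to 145 in StressFlx mice. Both leading genes are also smooth muscle genes. Of the 8 fibroblast markers, 1 was called in each comparison with Ctrl, with 5 StressPbs mice, where 3.81% and 3.67% of genes were called. It was Acta2, smooth muscle actin, higher in StressPbs mice by 0.92 (adjusted p = 0.0409) and in StressFlx mice by 1.12 (adjusted p = 0.0156) on the log2 scale. In StressPbs versus Ctrl with 5 StressPbs mice, 6 of the 8 log2 fold changes were above 0. Among these were Col1a1 (0.42), Dcn (0.38), Col1a2 (0.35) and Col3a1 (0.28). Those of Pdgfrb (-0.20) and Pdgfra (-0.03), receptors of stromal cells, were below 0. With all 6 StressPbs mice all 8 were above 0, Pdgfrb at 0.23 and Pdgfra at 0.43. These single genes were looked up after their values were seen. Macrophage markers, led by Cd74 and Lyz2, summed to 158 to 238 FPKM in Ctrl mice, 161 to 228 in all 6 StressPbs mice and 133 to 330.0 in StressFlx mice, the highest again being StressFlx mouse 4. Endothelial markers, led by Plvap and Emcn, summed to 50.3 to 81.9 FPKM in Ctrl mice, 39.9 to 70.4 in StressPbs mice 1 to 5, 129 in StressPbs mouse 6 and 68.9 to 88.3 in StressFlx mice. Fat markers, led by Fabp4 and Cidea, reached 811 FPKM in StressPbs mouse 5 and 544.5 in StressFlx mouse 5, which were also the 2 highest mice for Vim beside StressPbs mouse 6. Of the macrophage, endothelial, podocyte and fat genes, 0 were called in any comparison with 5 StressPbs mice by edgeR. At an unadjusted p under 0.05 stood 0, 0, 5 and 3 of them in StressPbs versus Ctrl, 2, 3, 0 and 0 in StressFlx versus StressPbs, and 1, 2, 3 and 1 in StressFlx versus Ctrl. DESeq2 called 0, 0, 1 and 1 in the first comparison, 0 in the second, and 1, 1, 1 and 0 in the last. Of all genes it called 4.66%, 1.61% and 5.19% in these comparisons. The part of these cell types in Vim, Timp1 and Vcam1 was not tested.

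Of 33 other genes reported in injured or repairing tubules, 32 were tested. In StressPbs against Ctrl mice, 4 were higher and 2 lower with 5 StressPbs mice (median log2 fold change 0.35, 25 of 32 above 0), where 3.81% of all genes were called. With all 6, where 4.28% of all genes were called, 8 were higher and 2 lower. Those higher with 5 StressPbs mice included Cdkn1a, encoding a cell cycle inhibitor (log2 fold change 2.21, adjusted p = 0.000128), Atf3, a stress-induced transcription factor (2.68, adjusted p = 0.00797), and Tnfrsf12a, the TWEAK receptor (1.53, adjusted p = 0.0156). The 2 lower genes were Il34, encoding a ligand of the macrophage receptor Csf1r (-1.42, adjusted p = 0.0118), and Ccn1, a matricellular protein (-1.26, adjusted p = 0.0131). Fgb and Fgg, fibrinogen chains produced by injured tubules, were called with StressPbs mouse 6 and not without it. For Fgb the log2 fold change was 4.60 with this mouse (SE 1.16, adjusted p = 0.0294) and 0.41 without it (adjusted p = 0.431), and that of Fgg was 3.70 and 0.23. Hmox1, heme oxygenase, also passed only when this mouse was included, but at a similar fold, 1.80 (adjusted p = 0.0385) against 1.71 without it (adjusted p = 0.0648). Plaur, the urokinase receptor, was at 1.17 (adjusted p = 0.0335) against 0.83 (adjusted p = 0.0757). In StressFlx against StressPbs mice, 1 of 32 was called, where 0.726% of all genes were. It was Ccn2, encoding a connective tissue growth factor and higher in StressFlx mice (1.25, adjusted p = 0.00131). By edgeR 7 had an unadjusted p under 0.05, and DESeq2 called 4, where it called 1.61% of genes. Not called here were Tnfrsf12a (-1.32, adjusted p = 0.0809), Cdkn1a (-0.925, adjusted p = 0.0872), Atf3 (-1.74, adjusted p = 0.141), Ccn1 (1.08, adjusted p = 0.0719) and Il34 (0.39, adjusted p = 0.709). With all 6 StressPbs mice Ccn2 was at 0.88 (adjusted p = 0.109) and 0 were called by edgeR, with 12 at an unadjusted p under 0.05 and 4 called by DESeq2. Of all genes, edgeR called 0.557% and DESeq2 1.76% there. In StressFlx against Ctrl mice, Ccn2 (0.83, adjusted p = 0.00664), Cdkn1a (1.29, adjusted p = 0.00733) and Anxa3 (0.58, adjusted p = 0.0330) were higher and Il34 was lower (-1.04, adjusted p = 0.0448), where 3.67% of genes were called. StressPbs mouse 6 is in neither of these groups, and in the fit that holds it the log2 fold changes were the same to 2 decimals for these 4 genes. The SE were larger and the adjusted p were 0.0843 for Ccn2, 0.0537 for Cdkn1a, 0.209 for Anxa3 and 0.0786 for Il34. In that fit 0 of the 32 were called by edgeR, with 6 at an unadjusted p under 0.05 and 3 called by DESeq2. Of all genes, edgeR called 1.77% and DESeq2 3.40% there.

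Of the 15 differentiated proximal tubule genes, 2 were higher in the 5 StressPbs mice than in Ctrl mice and none was lower, where 3.81% of all genes were called. The 2 were Pck1, the gluconeogenic enzyme (0.80, adjusted p = 0.00929), and Miox, an inositol oxygenase (0.46, adjusted p = 0.0375). With StressPbs mouse 6 Pck1 alone was called, and Miox was at 0.27 (adjusted p = 0.575). The summed level of the 15 was 4783 to 5197 FPKM in StressPbs mice 1 to 5, 4189 to 4833 in Ctrl mice and 4417 to 4819 in StressFlx mice. Pck1 was lower in StressFlx than in StressPbs mice (-0.83, adjusted p = 0.0209), where 0.726% of genes were called. In StressFlx mice 0 of the 15 differed from Ctrl by edgeR, where 3.67% of genes were called, with 4 at an unadjusted p under 0.05. DESeq2 called 1 there, and 5.19% of all genes. Where 3.81% of all genes were called, 2 of 8 genes of the loop, distal tubule and collecting duct, led by Umod and Aqp2, were higher in StressPbs mice. They were Calb1, a calcium buffer of the distal convoluted tubule (0.95, adjusted p = 0.00354), and Scnn1g, a sodium channel subunit (0.35, adjusted p = 0.0458).

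The genes whose levels ran most like 3 of the markers were sought by Spearman's rho over the 17 mice without StressPbs mouse 6, as a description only. For Havcr1 they were Gng8 (0.81), Itgb8 (0.80) and Yes1 (0.80). For Lcn2 they were Ucp2 (0.83), Capg (0.81) and Rgs11 (0.80), and for Krt20 they were Sfn (0.88), Lypd3 (0.88) and Sdk1 (0.87). The same 3 genes led for Krt20 over all 18 mice. The mice shared their group, so that these values hold differences between groups as well as within them.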

How the data were processed

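Right kidneys of 18 mice were sequenced as poly(A) RNA in read pairs. Per gene and mouse, the authors deposited FPKM and an estimated count. Per the study's methods, reads were cleaned with fastp and aligned to GRCm38 with HISAT-3N, and FPKM was estimated with StringTie. The submitters' processing notes instead list cutadapt 1.9, HISAT2 2.0.4, UMI-tools, StringTie 1.3.4d, DESeq2 and edgeR. Which program made the counts is unstated in the sources at hand. Estimated counts were used as whole numbers, as deposited. Gene coordinates are those of the deposited table, 9 of 10 members agreeing with GENCODE M21.

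From these files, groups were compared with edgeR 4.0.16 (R 4.3.3): TMM scaling, a filter on low counts (filterByExpr), a quasi-likelihood F test in 1 model over the 3 groups, two-sided, with Benjamini-Hochberg adjustment over all genes tested. A gene was called at an adjusted p under 0.05. The main fit used 17 mice, without StressPbs mouse 6, and was repeated with all 18. SE was the log2 fold change divided by the square root of F. The difference in mean log2(FPKM + 0.1) was tested for single members by an exact two-sided permutation test (scipy 1.17.1), 30 tests in the main comparison, with p not adjusted. Numbers of counts bound the precision, and a count of 0 allows up to 3, counting error only. The script was tested on simulated data with known changes. Alternatives were DESeq2 1.42.0, limma 3.58.1 on log2(FPKM + 0.1) or log2(FPKM + 1), other scalings, no filter, only the 2 groups compared, the replicate number as a block, StressFlx replicates 1 and 2 only, and leaving out each mouse. DESeq2 with all 6 StressPbs mice, and all 6 without StressFlx mouse 4, were added after seeing the data. Named genes were all 10 members, the 3 genes most like Havcr1, Lcn2 and Krt20, up to 5 called genes per list and comparison by smallest p, and the 2 most abundant genes of each list. The members and lists were chosen with earlier results of these data known, so that no list count is independent support. Some genes that the rule for named genes selects are not reported here. Promoter sequences were from RefSeq (GRCm38.p6).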

Additional observations from a re-analysis of the deposited data

Results flagged for a closer look

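For each member and group of 6 mice, the gap between the highest or lowest mouse and its nearest neighbour was divided by the range of the group and compared with Dixon's critical value of 0.625. Chance flags about 1 in 20 groups where values are normally distributed, which FPKM without a log need not be. StressPbs mouse 6 had also been singled out by the selection rule beforehand. The number of flags is therefore a description only. Of 30 member groups, 15 were flagged, each for a mouse far above the other 5. The same mice recur, so that these are not 15 independent observations.

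StressPbs mouse 6 stood apart in 6 members: Havcr1 at 9.75 FPKM (next highest 1.66), Lcn2 at 49.2 (4.42), Sox9 at 0.689 (0.218), Spp1 at 3904 (931), Clu at 299.6 (153) and Timp1 at 9.79 (2.47). StressFlx mouse 4 stood apart in 6 members: Havcr1 at 2.40 FPKM (next highest 0.834), Lcn2 at 6.37 (1.67), Krt18 at 57.0 (14.2), Sox9 at 0.325 (0.104), Spp1 at 678 (449.5) and Vcam1 at 2.95 (1.44). In the Ctrl group, Krt18 was at 28.0 FPKM in mouse 4 (next highest 13.1), Timp1 at 1.32 in mouse 5 (0.636) and Vcam1 at 1.21 in mouse 3 (0.823). The causes were not tested.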

How the results depend on the processing

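Over 29 alternatives, 870 member fold changes were recomputed, of which 807 kept their direction and their side of the threshold, 16 lost a call, 10 gained one and 37 changed sign. Clu and Spp1 were called in StressPbs versus Ctrl under each of the 29. The count of members called there was 2 or 3 when 1 mouse was left out (1.88% to 8.27% of all genes tested), 5 with all 6 StressPbs mice by DESeq2 (5.18%) and 4 with all 6 but not StressFlx mouse 4 (4.06%). In StressFlx versus StressPbs, 1 member became 2 with DESeq2 (1.61% of genes), 0 with StressFlx mice 1 and 2 only (0 genes), 0 with all 6 StressPbs mice but not StressFlx mouse 4 (0.509%), and 0 to 2 when 1 mouse was left out (0.227% to 1.24%). In StressFlx versus Ctrl, 1 member became 2 with DESeq2 (Vcam1 and Vim; 5.19%), 0 with StressFlx mice 1 and 2 only (0.0183%), 0 with all 6 but not StressFlx mouse 4 (0.904%), and 0 to 1 when 1 mouse was left out (1.35% to 15.4%). Fewer mice entered the fits with StressFlx mice 1 and 2 only, and otherwise the cause was not tested.

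The replicate numbers did not pair the mice, since 3 of 16 same-numbered pairs had correlated deviations above 0.1 (range -0.22 to 0.29). With the replicate number as a replicate block, 2 members were called in StressPbs versus Ctrl (2.07% of genes), 0 in StressFlx versus StressPbs (0.331%; Clu -0.64, adjusted p = 0.0664) and 0 in StressFlx versus Ctrl (1.27%; Vcam1 0.79, adjusted p = 0.0591).

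None of the fold changes that changed sign was called. Leaving out 1 mouse, values in StressFlx versus StressPbs ran from -1.48 to 0.76 for Krt20, -0.87 to 0.20 for Krt18, -0.88 to 0.11 for Sox9, -0.42 to 0.34 for Timp1 and -0.21 to 0.16 for Vim. In StressFlx versus Ctrl they ran from -0.29 to 0.51 for Havcr1, -0.052 to 0.82 for Lcn2, -0.31 to 0.84 for Krt18 and -0.023 to 0.82 for Sox9, the lowest of each being without StressFlx mouse 4. Timp1 in StressFlx versus StressPbs was -0.81 with all 6 StressPbs mice, -0.32 and -0.071 with limma on log2(FPKM + 0.1) and log2(FPKM + 1), -0.34 with the replicate block, -1.86 with StressFlx mice 1 and 2 only, -0.82 with all 6 by DESeq2 and -1.33 with all 6 but not StressFlx mouse 4. Vim was 0.022 and 0.024 with the 2 limma fits. In StressFlx versus Ctrl with StressFlx mice 1 and 2 only, Havcr1 was -0.50, Lcn2 -0.025, Krt18 -0.52, Sox9 -0.029 and Timp1 -0.74. With all 6 StressPbs mice but not StressFlx mouse 4, the first 4 were -0.30, -0.058, -0.31 and -0.028.

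Sox9 and Krt20 rest on few counts, with 17 to 38 and 0 to 51 per Ctrl mouse, so that their differences are imprecise.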
